A study of Mus musculus with 6 samples.

Results

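The genes described here encode channels and receptors through which cells take up a mechanical or ATP signal: Piezo1 and Piezo2, Trpv4 and Trpm7, Pkd1 and Pkd2, Panx1, P2rx4 and P2rx7, and Cacna1c. They were chosen by name, as 10 of the 53797 gene rows of the deposited comparison, and each name matched 1 row. The RNA came from MLO-Y4 cells, a single murine cell line with features of osteocytes that was derived from a mouse carrying a T antigen transgene under the osteocalcin promoter. In the LIPUS group, the cells of 3 libraries received low-intensity pulsed ultrasound for 20 min at 1.5 MHz and 30 mW/cm2 and rested for 30 min before RNA extraction. In the Control group, the cells of 3 libraries were not stimulated. Both groups grew on collagen-coated wells in serum-containing medium and shared plates whose transducers were unplugged below the control wells.

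Osteocytes lie in the bone matrix and respond to strain and fluid flow. Piezo channels and several TRP channels open when the membrane or the cytoskeleton is loaded and let calcium into the cell, and polycystins form a receptor and channel pair in the primary cilium. Loaded bone cells also release ATP, for which pannexin channels are one route, and P2X receptors are cation channels that open when this ATP binds. L-type calcium channels, opened by voltage, are a further route of calcium entry.

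The table gives 1 FPKM (fragments counted on a gene, scaled by its exon length and by the mapped fragments of the library) for each group, pooled by the authors over its libraries. No SD, test or confidence interval could therefore be computed from these values, and no library could be examined on its own. The study describes a Control library that stood apart from the others of its group, and leakage of ultrasound into control wells as a possibility. Neither could be examined in pooled values, and each ratio below is taken over the pooled Control value. The methods give a single rounded read number for the samples, and the table gives no depth per library. No difference below was checked against replicates here, and the deposited test results of the authors were not used. A gene is called expressed if either group reached an FPKM of 1, and ratios are LIPUS over Control. In all, 11999 rows were expressed, of which 222 were listed at 0 in 1 group and have no ratio. Of the remaining 11777 rows, 17.3% lay past 1.5-fold, with 8.41% higher and 8.91% lower with LIPUS, and their median log2 ratio was -0.0014. Of 16 markers of the osteoblast and osteocyte lineage, 10 were expressed. Col1a1, a collagen chain of bone matrix, had 891 FPKM in Control and 731 FPKM in LIPUS, and Pdpn, a marker of early osteocytes, 295 FPKM and 402 FPKM. Past 1.5-fold were Dmp1 (3.04 and 7.65 FPKM), Runx2 (24.4 and 14.8 FPKM), Sp7 (5.86 and 3.75 FPKM) and Alpl (293 and 190 FPKM). The Sp7 row was not tested by the authors' program. The markers Sost, Mepe, Fgf23, Dkk1 and Ibsp were listed at 0 in both groups, and Bglap and Phex were listed at 0 in Control, with 1.58 FPKM and 0.190 FPKM in LIPUS.

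Of the channel and receptor genes, 8 of 10 were expressed, and their levels lay close together in the 2 groups except for Pkd1. Piezo1 stood highest and Piezo2 lowest in both groups. Pkd1 was the only expressed gene of the 10 past 1.5-fold. This is 1 of 8, beside 17.3% of all expressed rows with a ratio. The other 7 differed by at most 1.12-fold, and their log2 ratios ran from -0.15 to 0.17. The median log2 ratio of the 8 expressed genes was 0.07. With LIPUS, 6 of the 8 were higher and 2 lower, where 49.9% of all expressed rows with a ratio were higher by any amount. The summed FPKM of the 10 genes was 180.9 in Control and 195.2 in LIPUS. Pkd1 alone was 9.0 FPKM higher in LIPUS, and the sum over all rows was 1.03 times larger in LIPUS.

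**Figure D1:**
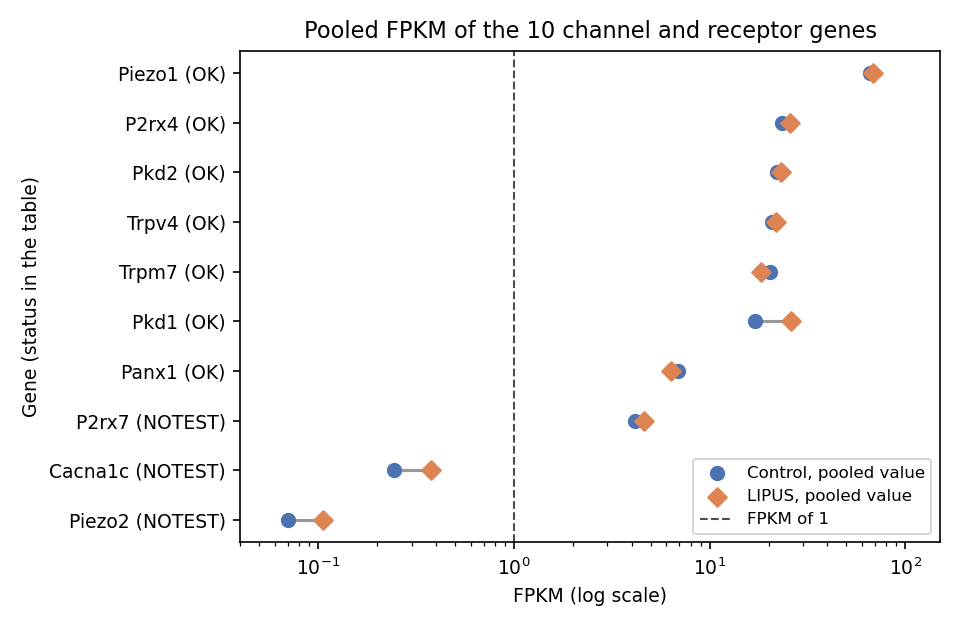
Pooled FPKM of each gene in Control (circles) and LIPUS (diamonds) on a log scale, with the status that the authors' program gave the row. The pairs of symbols nearly coincide, except for Pkd1 at 17.1 and 26.1 FPKM and for Cacna1c and Piezo2, which lie left of the dashed line at an FPKM of 1.

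The status column of the table was OK for 7 of these genes and NOTEST for 3, P2rx7, Cacna1c and Piezo2. NOTEST marks a row that the comparison program of the authors did not test, and 45652 rows carry it. The rows with the status OK all had an FPKM of at least 6.70 in 1 group. Panx1, at 6.90 FPKM in Control, lay just above this lowest value, and P2rx7, at 4.64 FPKM in LIPUS, below it.

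Piezo1 encodes the mechanically gated cation channel that is best known as a load sensor of bone cells. Its FPKM was 65.7 in Control and 68.4 in LIPUS, a log2 ratio of 0.06. This is the highest level of the 10 genes in both groups, at the 87.8 and 88.1 percentiles of the expressed rows, and 2.81 times the level of P2rx4, the second highest gene in Control. The paralogue Piezo2, known from touch and proprioceptive neurons, had 0.0702 FPKM in Control and 0.106 FPKM in LIPUS. Its level was 1.51 times higher with LIPUS, but both values are near 0 and the row was not tested. Piezo1 exceeded Piezo2 by 937-fold in Control and 644-fold in LIPUS, so nearly all Piezo transcript in these cells was Piezo1.

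Piezo1 (ENSMUSG00000014444) lies on the minus strand of chromosome 8 of GRCm38 from 122481698 to 122551329, with 9935 bp of annotated exon. Its last part overlaps Ctu2 on the opposite strand over 2441 bp, all of it exonic in both genes. Ctu2 had 18.5 FPKM in Control and 15.7 FPKM in LIPUS. The deposited locus of the Piezo1 row is far wider than the gene, from 119910360 to 124345724, and 210 rows share it. Gm20388, a gene model of about this width on the opposite strand, spans Piezo1 without sharing exon bases and had 4.08 FPKM in Control and 21.5 FPKM in LIPUS. Whether the strand was used in counting is not given in the sources used here, and what these overlaps add to the value of Piezo1 was not tested.

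Trpv4 encodes a calcium channel that responds to osmotic swelling and flow. It had 20.8 FPKM in Control and 21.7 FPKM in LIPUS, a log2 ratio of 0.07. Trpm7 encodes a channel for magnesium and calcium that is fused to a kinase, and was the largest difference downward, with 20.4 FPKM in Control and 18.4 FPKM in LIPUS and a log2 ratio of -0.15. The 2 genes were nearly level in Control, where Trpv4 over Trpm7 was 1.02, and this ratio was 1.18 in LIPUS.

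Pkd1 encodes polycystin-1, the large receptor-like partner, and Pkd2 encodes polycystin-2, the channel of the pair. Pkd1 had 17.1 FPKM in Control and 26.1 FPKM in LIPUS, or 1.53-fold more, a log2 ratio of 0.61. Pkd2 had 22.2 FPKM in Control and 23.3 FPKM in LIPUS, a log2 ratio of 0.07. Pkd1 was thus the lower of the pair in Control, at 0.770 times Pkd2, and the higher in LIPUS, at 1.12 times Pkd2. Among the 10 genes Pkd1 ranked 6 in Control and 2 in LIPUS. With no spread within the groups, genes next to each other in this order, such as Pkd1 and P2rx4 in LIPUS, cannot be separated.

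The ratio of Pkd1 lies just past 1.5-fold, and it did not pass in 2 of the 4 other scalings. It was 1.50-fold (log2 ratio 0.58) with a pseudocount of 1 and 1.48-fold (log2 ratio 0.56) when each FPKM was divided by the sum of its group, which was 1.03 times larger in LIPUS. Of the 3481 rows with a mean FPKM from 20 to 100, 5.29% lay past 1.5-fold in either direction. The genes Piezo1, P2rx4, Pkd2, Pkd1 and Trpv4 fall in this range, and the 4 other than Pkd1 were at most 1.11-fold apart. Pkd1, with a mean FPKM of 21.6, lies near the lower bound of the range, next to the range from 5 to 20 FPKM. The share was 35.2% from 1 to 5 FPKM, where P2rx7 lies, 13.3% from 5 to 20 FPKM, where Trpm7 and Panx1 lie, and 4.63% above 100 FPKM. Among rows with the status OK it was 9.39%.

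**Figure D2:**
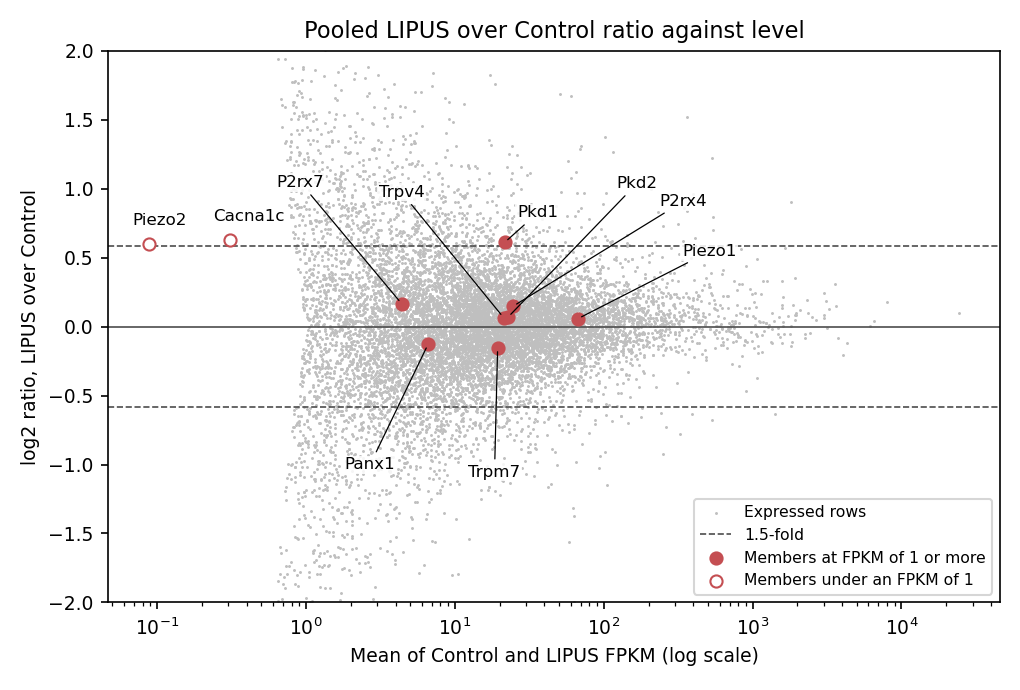
log2 ratio of LIPUS over Control against the mean FPKM of the groups, with expressed rows in grey, the 10 genes in red and dashed lines at 1.5-fold. Pkd1 lies just above the upper line, Piezo2 and Cacna1c lie above it at a mean FPKM under 1, and the other 7 lie between -0.15 and 0.17. The axis leaves out 176 rows with a log2 ratio beyond 2 in either direction.

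**Figure D3:**
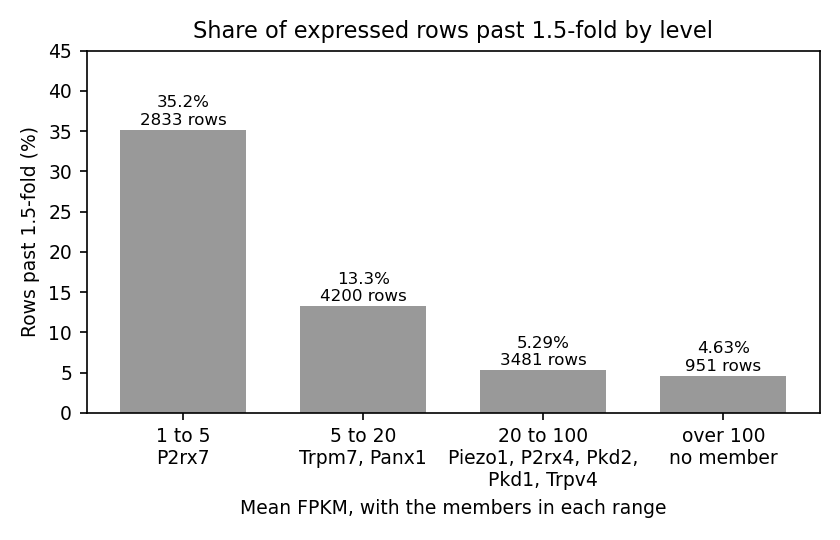
Percent of expressed rows whose pooled FPKM differ by at least 1.5-fold in either direction, by range of mean FPKM, with the number of rows and the genes described here that fall in each range. The share falls from 35.2% at 1 to 5 FPKM to 4.63% above 100 FPKM.

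Pkd1 (ENSMUSG00000032855) lies on the plus strand of chromosome 17 from 24549834 to 24596508 and carries 17415 bp of annotated exon. Its end overlaps Tsc2, the tuberous sclerosis gene on the opposite strand, over 693 bp, all of it exonic in both. Tsc2 had 23.4 FPKM in Control and 21.2 FPKM in LIPUS, the opposite direction to Pkd1. The deposited locus of Pkd1 reaches to the far end of Tsc2, and the share of reads from the overlap that went to either gene was not tested.

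Panx1 encodes pannexin 1, a membrane channel through which ATP leaves the cell. It had 6.90 FPKM in Control and 6.32 FPKM in LIPUS, a log2 ratio of -0.13. It was the least abundant of the genes with the status OK among the 10. Gja1, the gene of connexin 43, the other well-known release route in osteocytes, had 176 FPKM in Control and 170 FPKM in LIPUS, so that it stood 25.6 and 26.9 times above Panx1.

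P2rx4 and P2rx7 encode ATP-gated cation channels, of which P2X7 needs high ATP and P2X4 responds to lower amounts. P2rx4 had 23.4 FPKM in Control and 25.9 FPKM in LIPUS, a log2 ratio of 0.15. P2rx7 had 4.14 FPKM in Control and 4.64 FPKM in LIPUS, a log2 ratio of 0.17. Both were slightly higher with LIPUS, and P2rx4 exceeded P2rx7 by 5.64-fold in Control and 5.57-fold in LIPUS. Of the summed FPKM of the 7 P2X genes, P2rx4 held 76.8% in Control and 77.6% in LIPUS, and P2rx7 13.6% and 13.9%. P2rx1, P2rx2 and P2rx3 were listed at 0 in both groups.

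Both receptors are also known from macrophages, so the markers of these cells are given with them. Of 8 macrophage and leukocyte markers, 5 were listed at 0 in both groups, among them Ptprc, Adgre1, Itgam and Cd3e. The summed FPKM of the list was 7.56 in Control and 2.14 in LIPUS, mostly from Cd68 (5.32 and 1.72 FPKM) and Lyz2 (2.01 and 0.189 FPKM). Both of these rows carry the status NOTEST. All samples are of the single MLO-Y4 line, so these are levels of marker genes and not a measure of macrophages present.

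Cacna1c encodes the pore of the L-type channel Cav1.2. It had 0.243 FPKM in Control and 0.376 FPKM in LIPUS, over 21191 bp of annotated exon, and the row was not tested. The level was 1.54 times higher with LIPUS, but both values lie under the FPKM of 1 used here for expression. Of the 10 Cacna1 genes, 6 were listed at 0 in both groups and 1 was expressed, Cacna1a, whose P/Q-type channel is best known from nerve endings. Cacna1a had 4.13 FPKM in Control and 1.23 FPKM in LIPUS, and was not tested.

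**Figure D4:**
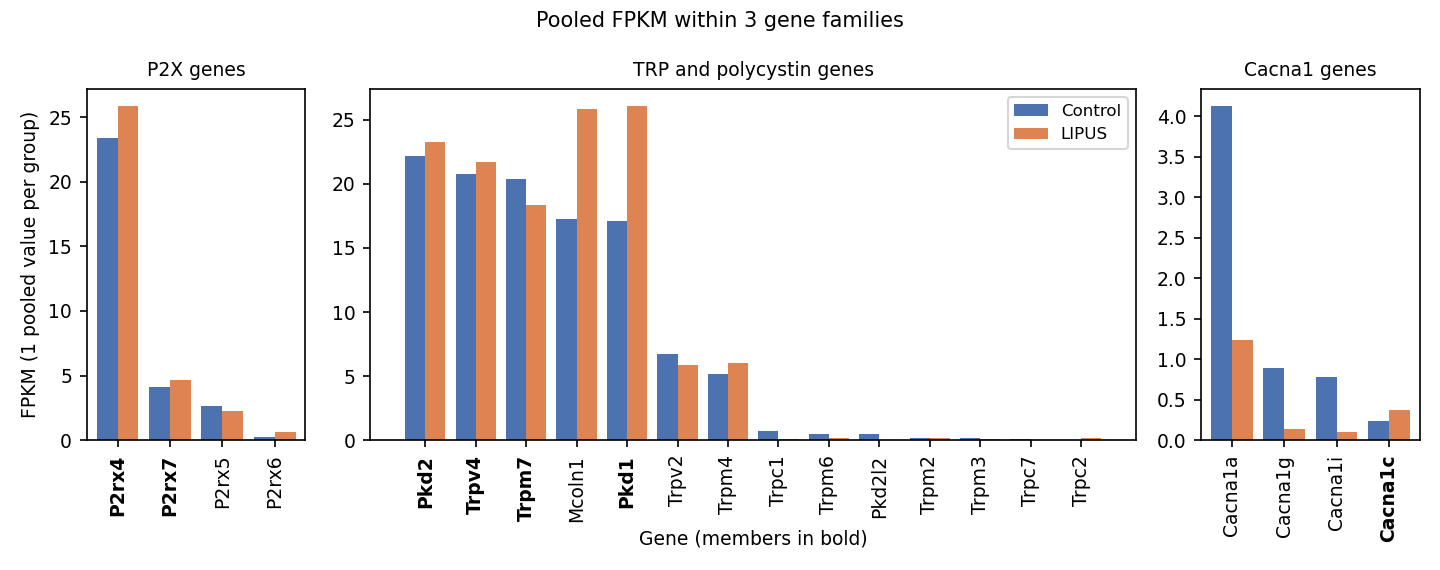
Pooled FPKM in Control and LIPUS of the P2X, the TRP and polycystin, and the Cacna1 genes with a value above 0 in at least 1 group, each panel with its own linear axis from 0. P2rx4 stands alone among P2X genes, 5 genes lie between 17.1 and 26.1 FPKM in the middle panel, with Pkd1 and Mcoln1 higher in LIPUS, and Cacna1c lies under 0.4 FPKM.

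The bases upstream of the annotated starts show how the promoters of the genes differ that the results turn on. Piezo1 is shown as the most abundant gene, Pkd1 as the one past 1.5-fold, and P2rx7 and P2rx4 as neighbours on the plus strand of chromosome 5, with 16.1 kb between the end of P2rx7 and the start of P2rx4. Sequences are from the RefSeq annotation of GRCm38.p6, matched for 9 of the 10 genes, and stop before the first base of the gene in GENCODE M21. Capitals mark complete matches to the GC box GGGCGG, the TATA box TATAAA and the AP-1 motif TGANTCA on either strand. The windows are chr8:122551330-122551579 on the minus strand, and chr17:24549700-24549833, chr5:122643677-122643910 and chr5:122707294-122707543 on the plus strand.
Piezo1: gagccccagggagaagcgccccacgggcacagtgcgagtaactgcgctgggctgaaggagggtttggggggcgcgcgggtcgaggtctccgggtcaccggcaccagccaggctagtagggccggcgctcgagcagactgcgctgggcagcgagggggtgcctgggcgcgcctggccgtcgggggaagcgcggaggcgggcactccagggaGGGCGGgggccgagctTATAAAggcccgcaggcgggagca
Pkd1: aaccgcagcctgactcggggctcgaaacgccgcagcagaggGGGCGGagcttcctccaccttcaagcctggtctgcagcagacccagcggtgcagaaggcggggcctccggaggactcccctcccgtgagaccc
P2rx7: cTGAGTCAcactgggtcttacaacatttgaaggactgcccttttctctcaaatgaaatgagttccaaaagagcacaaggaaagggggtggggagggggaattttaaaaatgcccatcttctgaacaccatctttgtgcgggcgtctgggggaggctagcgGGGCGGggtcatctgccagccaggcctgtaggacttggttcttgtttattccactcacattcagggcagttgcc
P2rx4: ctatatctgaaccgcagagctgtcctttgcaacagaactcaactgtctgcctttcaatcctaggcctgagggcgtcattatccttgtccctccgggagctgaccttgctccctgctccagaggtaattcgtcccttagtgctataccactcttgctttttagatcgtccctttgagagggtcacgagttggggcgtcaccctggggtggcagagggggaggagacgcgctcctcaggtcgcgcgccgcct

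Over 250 bases before the RefSeq start, Piezo1 had 74% G and C and 26 CG dinucleotides, against medians of 52.4% and 6 over 32851 annotated promoters. Pkd1 had 67.2% and 16, P2rx4 57.2% and 13, and the first start of P2rx7 53.6% and 6. A TATA box begins at position -24 of Piezo1, counted from the RefSeq start, and none of the other entries of the 9 genes holds these letters. It occurs in 12.4% of all promoters. Pkd1 holds 4 GC boxes in this window, 1 of them within the printed bases, and 32.7% of all promoters hold at least 1. P2rx7 holds an AP-1 motif at position -249, as do 6.75% of promoters at any position, and 2 GC boxes. The second of these, at position -11 and so beyond the printed bases, overlaps a match to the early growth response (EGR) motif GCGNGGGCG, which 4.70% of promoters hold. The middle of the 3 starts of Cacna1c holds 6 GC boxes and 1 EGR motif, and Trpv4 holds 2 GC boxes. P2rx4 and Trpm7 hold none of the motifs searched. The CRE motif TGACGTCA, present in 1.55% of promoters, was not in these windows for any of the 9 genes. A CCAAT box, found in 33.8% of promoters, was present for Panx1 and at 1 of the 3 starts of Cacna1c, and the TEAD motif GGAATG, found in 12.6%, for Pkd2. These matches describe letters and not bound sites.

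In 7 lists of 118 further channel and purinergic genes, 43 were expressed and 56 were listed at 0 in both groups. Past 1.5-fold were 5 higher and 2 lower, or 16.3% of the expressed genes, which is near the 17.3% of all expressed rows with a ratio. Their median log2 ratio was -0.01. Of the 7 genes past 1.5-fold, 6 were among the 14 expressed list genes with a mean FPKM under 5. These 6 are Adora2b, Asic1, Cacna1a, Lrrc8c, Orai1 and Slc17a9, and all carry the status NOTEST. Only Alpl has the status OK. Over all expressed rows with a mean FPKM from 1 to 5, 35.2% lay past 1.5-fold. That range leaves out means under 1, such as that of Adora2b.

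The other mechanically gated and swelling-activated channel genes and their partners numbered 24, of which 12 were expressed, with 2 past 1.5-fold higher and 0 lower. The most abundant were Mdfi, with 51.0 FPKM in Control and 44.0 FPKM in LIPUS, and Tmem120a (46.3 and 39.0 FPKM). Those past 1.5-fold were Lrrc8c, a subunit of the volume-regulated anion channel (2.05 and 4.03 FPKM), and the proton-gated channel gene Asic1 (1.71 and 4.36 FPKM). The list's median log2 ratio was -0.04. Mdfic, which encodes a known auxiliary subunit of Piezo channels, had 18.3 FPKM in Control and 17.6 FPKM in LIPUS. The osmotically sensitive Tmem63a (22.8 and 22.5 FPKM) and Tmem63b (21.7 and 19.1 FPKM) stood at the level of Trpv4.

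Of the 29 other TRP and polycystin genes, 3 were expressed and 19 were listed at 0 in both groups, and none of the 3 lay past 1.5-fold. They were Mcoln1, Trpv2 and Trpm4. Mcoln1, the lysosomal calcium channel, had 17.3 FPKM in Control and 25.8 FPKM in LIPUS, which at 1.50-fold (log2 ratio 0.58) lay just short of the threshold that Pkd1 just passed. Trpv2 had 6.72 and 5.90 FPKM. Together with these, the members Pkd2, Trpv4, Trpm7 and Pkd1 were 4 of the 5 most abundant of the 33 TRP and polycystin genes in both groups.

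Among 22 other voltage-gated and store-operated calcium channel genes, 10 were expressed, with 1 past 1.5-fold higher and 1 lower and a median log2 ratio of -0.09. The store-operated channel gene Orai2 was the most abundant (30.2 FPKM in Control and 29.9 FPKM in LIPUS), followed by the auxiliary subunit gene Cacna2d1 (10.8 and 13.8 FPKM). Orai1 was the higher gene, with 1.98 and 3.94 FPKM, and Cacna1a the lower. The auxiliary subunit genes Cacnb1 (7.43 and 5.45 FPKM), Cacnb3 (4.29 and 5.87 FPKM) and Cacnb2 (1.15 and 0.798 FPKM) were also expressed, while the pore gene Cacna1c was under an FPKM of 1.

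Of 13 other genes of ATP release, 6 were expressed, with a median log2 ratio of -0.08. Slc17a9, the vesicular nucleotide transporter, was the only one past 1.5-fold (1.83 and 3.06 FPKM). Panx2 was listed at 0 in both groups, and Panx3 had 0.864 and 0.184 FPKM, so Panx1 was the only pannexin gene expressed.

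Of the 12 P2Y and adenosine receptors, 3 were expressed and 8 were listed at 0 in both groups. P2ry2, the receptor for ATP and UTP, had 3.37 FPKM in Control and 3.40 FPKM in LIPUS, Adora2a 2.75 and 3.20 FPKM, and Adora2b, past 1.5-fold, 0.440 and 1.16 FPKM. P2rx5 was the only expressed P2X gene besides P2rx4 and P2rx7 (2.68 and 2.22 FPKM). P2rx4 was therefore the most abundant nucleotide receptor gene of those listed.

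Of 13 genes for the breakdown and transport of extracellular nucleotides and adenosine, 8 were expressed, 0 were past 1.5-fold higher and 1 was lower. The nucleoside transporter Slc29a1 had 487 FPKM in Control and 423 FPKM in LIPUS. The lower one was Alpl, alkaline phosphatase, at 1.55-fold less in LIPUS. All 4 Entpd genes of the list, which encode surface enzymes that degrade ATP, were listed at 0 in both groups. Nt5e, which makes adenosine from AMP, had 35.0 and 40.8 FPKM.

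Markers of other cell types were low, apart from Fabp4, a lipid-binding protein gene on the adipocyte list. Of 5 endothelial markers Cdh5, Kdr, Tek and Vwf were listed at 0 in both groups, and Pecam1 had 0.496 FPKM in Control and was listed at 0 in LIPUS. The 5 neuron markers summed to 0.787 FPKM in Control and 1.24 FPKM in LIPUS, with Snap25 and Rbfox3 listed at 0. The 6 muscle markers summed to 5.04 and 7.54 FPKM, mostly from Acta1 (1.97 and 5.62 FPKM) and Cnn1 (3.01 and 1.81 FPKM), with Myod1 and Myog listed at 0. Of the 4 adipocyte markers, Fabp4 had 52.3 and 30.4 FPKM, Adipoq had 0.643 and 0.193 FPKM, and Plin1 and Lep were listed at 0. As all samples are of the MLO-Y4 line, these too are levels of marker genes and not a measure of other cells present.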

How the data were processed

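RNA from 3 LIPUS and 3 Control samples of MLO-Y4 cells was sequenced from stranded mRNA libraries. Per the labels and the methods, Trimmomatic 0.36 was used for trimming and TopHat 2.1.0 for alignment to GRCm38, running bowtie 2.2.6.0, and the authors obtained FPKM with Cufflinks (2.2.1 in the methods, 2.1.1 in the submitters' processing notes) and Cuffdiff, over Ensembl mouse transcripts. How libraries were scaled and whether strand was used in counting are not given in the sources used here. The authors deposited 1 pooled FPKM per group and gene. The deposited fold changes, test statistics, p-values and q-values hold the comparison of the study and were not used here. Of the table, the pooled values, the locus and the status were used.

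No test was run, since 2 pooled values per gene leave no replicate error. The log2 ratio of LIPUS over Control was taken without a pseudocount, and genes were counted at a minimum FPKM of 1 and past 1.5-fold, a descriptive limit. Pseudocounts of 0.1 and 1, median centring, division by the summed FPKM, other minimum values (0.1, 5 and none), folds of 1.25 and 2, and rows with the status OK were the alternatives. Named are the 10 members, the 2 most abundant genes of each list and those past 1.5-fold, and of the marker lists also those listed at 0 in both groups. Tmem63a, Tmem63b, Mdfic, Trpm4, Panx2, Panx3, Nt5e, Phex, Bglap, Cacnb1, Cacnb2, Cacnb3, the Entpd and P2X genes at 0 and the genes that overlap members were named after their values were seen. Some genes that this rule names are not reported here. The members and lists were chosen with earlier results of these data known. Positions and exon lengths are from GENCODE M21, and upstream sequences from RefSeq. Python 3.11.15 with numpy 2.4.6, pandas 2.3.3 and matplotlib 3.10.9 was used, and the counting was tested on simulated data.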

Additional observations from a re-analysis of the deposited data

How the results depend on the processing

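Of 40 log2 ratios, 4 alternatives for each of the 10 genes, none changed sign. This count is no check of direction for most settings. A pseudocount added to both groups cannot change a sign, and centring moved each ratio by far less than its size. Division by the summed FPKM lowered every ratio, and left those of Piezo1, Trpv4 and Pkd2 at 0.012, 0.020 and 0.022. Of the 40 ratios, 32 kept their side of 1.5-fold. Of the 8 that fell under it, those of Pkd1 were 0.58 with a pseudocount of 1 and 0.56 after division by the summed FPKM. Piezo2 and Cacna1c, both under an FPKM of 1, fell under it with either pseudocount and after that division, to between 1.03-fold and 1.47-fold for Piezo2 and between 1.11-fold and 1.50-fold (log2 ratio 0.58) for Cacna1c. The count of expressed members past 1.5-fold, 1 of 8 as reported, was 0 with a pseudocount of 1 (13.5% of all expressed rows), 0 after division by the sum (17.8%) and 0 past 2-fold (6.91%). It was 3 of 10 with a minimum FPKM of 0.1 and also with no minimum, when Piezo2 and Cacna1c were added. The share was then 22.8% in each case, taken over the rows that met the setting and had a ratio. The number of expressed members was 10 with either of these and 7 with a minimum of 5, which removed P2rx7. The count of genes of the channel and purinergic lists past 1.5-fold, 7 of 43 as reported, was 14 of 53 with a minimum FPKM of 0.1 and 14 of 55 with no minimum, against the same 22.8%. It was 1 of 29, Alpl, with a minimum of 5 (10.7% of the rows that reached it and had a ratio). Of 43 genes it was 15 past the smaller alternative fold (36.1%) and 3 past 2-fold (6.91%). No paired analysis was possible because the table holds 1 pooled value per group, and for the same reason no replicate could be left out. The table gives no depth per library, and what depth limits was not measured.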
